A study of Mus musculus with 4 samples.

Results

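Among the 9300 liver mononuclear cells of 4 single-cell RNA-seq libraries, 169 cells (1.82%) carried the transcripts of the primary granules that immature granulocytes fill: myeloperoxidase (Mpo), neutrophil elastase (Elane) and proteinase 3 (Prtn3). A cell was a member if it held at least 3 unique molecular identifiers (UMIs, counted transcript molecules) of these 3 genes together, no UMI of the T cell genes Cd3d, Cd3e and Cd3g, and at most 2 UMIs of the B cell genes Cd79a, Cd79b and Ms4a1. The Naïve library held 5 such cells, ConA+Veh 80, ConA+TCDD 45 and ConA+FICZ 39. C57BL/6 mice of 8 to 10 weeks were either naïve by their label (Naïve) or injected with concanavalin A (ConA), a plant lectin that activates T cells and inflames the liver. The injected mice were then given corn oil (ConA+Veh), the dioxin TCDD (ConA+TCDD) or the tryptophan derivative FICZ (ConA+FICZ). TCDD and FICZ are both ligands of the aryl hydrocarbon receptor (AhR). Livers of ConA-injected mice were taken after 24 hours, and cells were enriched on a Percoll density gradient before capture. Each condition was 1 library, and how many mice went into it is not given in the sources used here, so no spread between animals can be estimated and no difference between conditions was tested. Intervals in parentheses are 95% intervals that cover counting error only.

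The libraries held 5952445 UMIs in 2086 cells (Naïve), 19252211 in 2779 (ConA+Veh), 12077209 in 1880 (ConA+TCDD) and 16017797 in 2555 (ConA+FICZ). The Mpo/Elane/Prtn3+ cells were much deeper than the other cells: their median was 20611 UMIs in Naïve, 17165 in ConA+Veh, 20498 in ConA+TCDD and 19298 in ConA+FICZ, against medians of 2161, 3984, 3761.5 and 3147 UMIs over all cells of the same libraries. The median number of genes with a UMI was 4080, 3650.5, 4105 and 4157 in the same order. No doublet caller was run, so cells captured in pairs may be among these deep cells. Pairs of libraries shared between 4 and 15 cell barcodes, and no shared barcode was a member in both libraries (0 cells).

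Granulocytes are made in the bone marrow from progenitors that first pack primary (azurophil) granules with Mpo and serine proteases, then stop dividing while they fill specific granules with lactoferrin and cathelicidin, and last switch on the genes of the mature neutrophil. The same progenitors can also give monocytes, a choice in which the transcription factor Irf8 sides with the monocyte and Gfi1 and Cebpe with the granulocyte. Primary granule genes are thus read in cells of either fate, and the markers Mpo, Elane and Prtn3 alone do not tell them apart.

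The working label of these cells, granulocyte progenitor-like, was checked against genes that the rule did not use. The later genes of granulocytes gave a mixed picture. Ltf (lactoferrin), Camp (cathelicidin), Ngp, Itgb2l and Ceacam10, 5 of the 13 listed genes of the specific granules, and the mature neutrophil genes Retnlg and Mmp9 each had a total of 0 UMIs in the 169 cells; 0 of 169 cells, taken as fewer than 3, allows a share of cells with a UMI of up to 1.78%, and says nothing of transcripts that were not captured. Others of the list, among them Chil3, Lcn2, Hp and Cybb, were read, and at least 3 UMIs of the list were held by 20% of the Naïve members, 30% of those of ConA+Veh, 17.8% of ConA+TCDD and 30.8% of ConA+FICZ after each cell was thinned to 1000 UMIs (80%, 77.5%, 77.8% and 89.7% unthinned). Monocyte or macrophage-like cells, described further on, reached 46.7%, 35.8%, 29.2% and 42.7% thinned, and neutrophil-like cells at least 98.5%. By the genes that were used to pick other myeloid cells, 137 of the 169 cells (81.1%) held at least 3 UMIs of the monocyte genes Csf1r, Ms4a6c and Fcgr1, while 4 cells (2.37%) held at least 3 UMIs of the neutrophil genes Csf3r, Cxcr2 and Retnlg. Both counts are unthinned. At member medians of 20611, 17165, 20498 and 19298 UMIs, a cell can reach 3 UMIs through its depth. Since these markers point to no single branch, the cells are called by their rule, Mpo/Elane/Prtn3+ cells.

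The 250 bases before the RefSeq transcription starts (build GRCm38.p6) are shown for the 3 rule genes and for Ctsg, the gene of cathepsin G, which followed them from cell to cell. By GENCODE, which starts Mpo, Elane and Prtn3 at other bases than RefSeq, so that these windows reach into its gene spans, Prtn3 and Elane are neighbours on the plus strand of chromosome 10 (79874476 to 79883174 and 79886247 to 79888215), 3072 bases apart, Mpo lies on the plus strand of chromosome 11 (87793581 to 87804413), and Ctsg on the minus strand of chromosome 14 (56099881 to 56102574). Capitals mark AGGAAGT, a core to which ets factors such as PU.1 can bind, and each sequence runs 5′ to 3′ on the strand of its gene.
Mpo, chr11:87793534-87793783, plus strand: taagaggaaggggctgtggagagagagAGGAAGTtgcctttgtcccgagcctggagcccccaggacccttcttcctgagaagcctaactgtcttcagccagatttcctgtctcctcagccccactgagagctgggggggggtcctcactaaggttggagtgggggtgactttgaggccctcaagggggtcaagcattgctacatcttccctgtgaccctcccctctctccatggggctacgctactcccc
Elane, chr10:79886062-79886311, plus strand: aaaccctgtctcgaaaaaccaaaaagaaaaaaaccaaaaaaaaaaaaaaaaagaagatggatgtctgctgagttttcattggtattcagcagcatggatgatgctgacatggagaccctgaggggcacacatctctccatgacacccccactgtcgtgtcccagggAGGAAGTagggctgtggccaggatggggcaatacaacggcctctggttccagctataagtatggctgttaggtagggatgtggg
Prtn3, chr10:79879417-79879666, plus strand: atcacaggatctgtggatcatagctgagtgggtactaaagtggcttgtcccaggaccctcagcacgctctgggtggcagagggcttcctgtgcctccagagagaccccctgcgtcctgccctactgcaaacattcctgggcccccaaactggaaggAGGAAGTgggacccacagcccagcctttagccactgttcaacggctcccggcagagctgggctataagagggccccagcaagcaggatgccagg
Ctsg, chr14:56102575-56102824, minus strand: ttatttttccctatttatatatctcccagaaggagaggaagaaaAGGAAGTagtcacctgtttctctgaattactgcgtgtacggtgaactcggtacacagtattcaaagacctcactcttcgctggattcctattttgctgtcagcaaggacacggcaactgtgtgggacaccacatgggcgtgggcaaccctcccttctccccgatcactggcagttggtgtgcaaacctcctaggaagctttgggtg
The heptamer stood once in each of the 4 sequences, 223 to 217 bases before the start in Mpo, 84 to 78 in Elane, 94 to 88 in Prtn3 and 206 to 200 in Ctsg. On either strand it was found in 2525 of 32851 mouse promoter windows of this length (7.69%), and it was not in the window of Ms4a3 (chr19:11640852-11641101, minus strand). A Myb core, AACGG, stood 50 to 46 bases before the start of Elane and 55 to 51 before that of Prtn3, and in 14.5% of all windows. TTNNGNAA, the paired half-sites of C/EBP factors, stood once in Ms4a3 and in 36.8% of all windows. The 3 motifs, which do not overlap each other here, were chosen with these promoters in view, and a match is a description of letters and not a bound site.

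The rule genes themselves, which chose the cells and are given without a test, were unevenly spread. Prtn3 was found in 166 of the 169 cells, Elane in 100 and Mpo in 85, and 67 cells held all 3. Prtn3 alone was found in 51 cells, with Elane but without Mpo in 33, and with Mpo but without Elane in 15. Most cells thus passed through Prtn3, and fewer than all carried the peroxidase.

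Levels are given as CPM, the UMIs of a gene summed over the cells of one library scaled to 1000000 UMIs of those cells. Mpo, which makes hypochlorous acid, was at 159 CPM (92.6 to 254) in the Naïve members, 442 (409 to 476) in ConA+Veh, 595 (546 to 647) in ConA+TCDD and 191 (162 to 225) in ConA+FICZ. Elane was at 9.35 CPM in Naïve, 461 (428 to 496) in ConA+Veh, 1056 (991 to 1124) in ConA+TCDD and 332 (293 to 375) in ConA+FICZ. Prtn3 was at 542 CPM (412 to 701), 1974 (1905 to 2046), 2456 (2356 to 2559) and 1613 (1525 to 1706) in the same order. Each of the 3 genes was highest in the ConA+TCDD cells and lowest in the 5 Naïve cells or, among the ConA libraries, in ConA+FICZ. In the Naïve library 1 cell held 94.1% of the Mpo UMIs, and this cell also held 132 UMIs of Mcpt8, a basophil protease.

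At the limit of the rule, 11 cells held exactly 3 UMIs of the rule genes (7 in ConA+Veh, 2 in ConA+TCDD and 2 in ConA+FICZ). With 2 UMIs, 12 cells of ConA+Veh, 1 of ConA+TCDD and 15 of ConA+FICZ stayed just outside it. The median sum of the rule genes in a member was 16 UMIs in Naïve, 11 in ConA+Veh, 16 in ConA+TCDD and 26 in ConA+FICZ, and the highest was 28, 451, 509 and 186. Among T cells, which should lack these genes, 0% of the Naïve cells, 4.49% in ConA+Veh, 3.27% in ConA+TCDD and 0.196% in ConA+FICZ held at least 1 UMI of them, at median depths of 3003, 8277, 7869.5 and 9752 UMIs. At least 3 UMIs, the minimum of the rule, were held by 0, 2, 1 and 0 T cells.

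For the gene groups, the members were set beside 2 other myeloid cell sets of the same library that also had at most 2 UMIs of the rule genes, the same limits on T and B cell genes, and at most 2 UMIs of the genes that chose the other set: neutrophil-like cells (at least 3 UMIs of Csf3r, Cxcr2 and Retnlg) and monocyte or macrophage-like cells (at least 3 UMIs of Csf1r, Ms4a6c and Fcgr1). The libraries held 19, 78, 29 and 230 neutrophil-like cells, with median depths of 2078, 2278, 1784 and 2144 UMIs, and 60, 122, 24 and 154 monocyte or macrophage-like cells, with median depths of 3673.5, 6595, 6934.5 and 5843 UMIs, in the order Naïve, ConA+Veh, ConA+TCDD, ConA+FICZ used throughout. Since members and comparison cells were both picked by UMIs, their differences are descriptions.

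The primary granule list without the 3 rule genes was not higher in the members as a whole. It summed to 4347, 6290.4, 5214 and 5465 CPM, log2 ratios of -0.61, -0.63, -1.06 and -0.48 against the neutrophil-like cells and -1.69, -0.16, -0.084 and -0.21 against the monocyte or macrophage-like cells, and its most abundant genes were Lyz2 and Srgn, a granule proteoglycan core, which both comparison sets also transcribed. Within the list, Ctsg, Ms4a3 and Prss57 were at or near 0 in both comparison sets and read in part of the members. Ctsg, another azurophil protease, was at 103 CPM (51.3 to 184), 522 (486 to 559), 582 (534 to 633) and 350.3 (310 to 395) in the members, in 90 of 169 cells. It was at 0 UMIs in the neutrophil-like cells of all 4 libraries and at 0, 1.06, 4.76 and 1.77 CPM in the monocyte or macrophage-like cells. Ms4a3, a membrane protein of granulocyte and monocyte progenitors, was at 74.8, 333, 289 and 230.5 CPM, in 72 cells, and at no more than 5.09 CPM in either comparison set. Prss57, a further azurophil protease, was found in 33 cells and was at 0, 19.6, 17.3 and 9.11 CPM. Ctsc, the peptidase that activates the granule proteases, was at 972, 1124, 779 and 1112 CPM in the members and between 23.5 and 80.4 CPM in the neutrophil-like cells, but at 736, 1294, 729 and 1355 CPM in the monocyte or macrophage-like cells. The levels of Ctsg and Ms4a3 in the Naïve members lay below those of each ConA library.

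**Figure D1:**
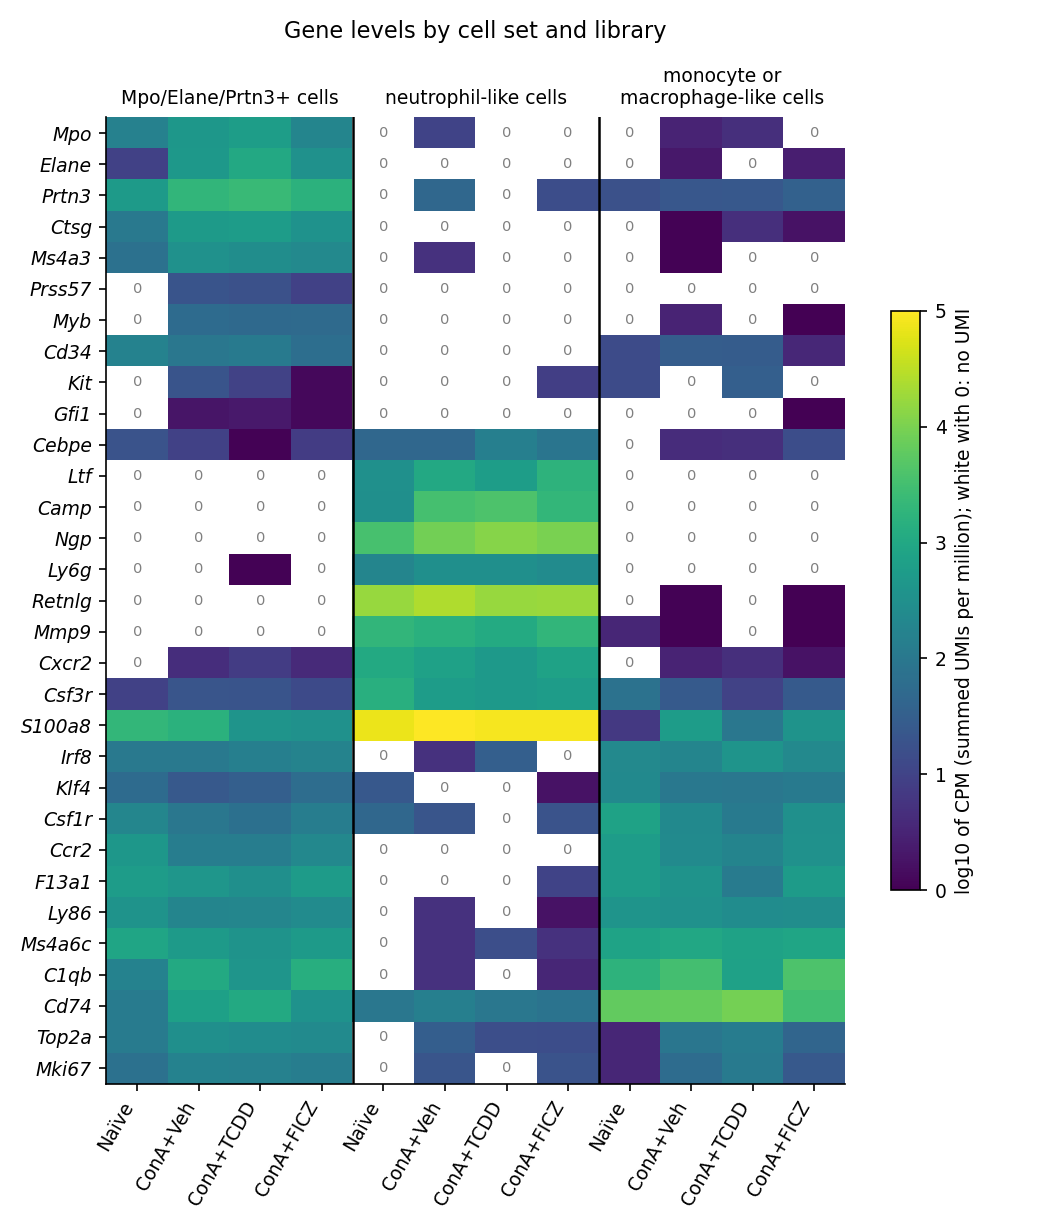
Colours give the log10 CPM of each gene (rows) in the Mpo/Elane/Prtn3+ cells, the neutrophil-like cells and the monocyte or macrophage-like cells of each library (columns), and white cells with a 0 had no UMI. Ctsg and Ms4a3 are high in the members and at most 5.09 CPM elsewhere, Ltf, Camp and Ngp are at 0 in the members and high in the neutrophil-like cells, and Irf8, Ccr2 and F13a1 are high in the members and in the monocyte or macrophage-like cells.

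The specific granule list was far lower in the members than in the neutrophil-like cells. Its 13 genes summed to 2271 CPM, 2089, 1295 and 1693 CPM in the members, against 24035, 35557, 37590 and 41978 CPM in the neutrophil-like cells, log2 ratios of -3.40, -4.09, -4.86 and -4.63. Against the monocyte or macrophage-like cells the log2 ratios were -0.15 (-0.36 to 0.06), -0.32, -0.71 and -0.82, and the first became 0.44 with means over cells. Ltf was at 329, 1064, 611 and 1681 CPM in the neutrophil-like cells and at 0 in the members, which with a floor of 3 counts per library made it at least 11.7-fold, 544-fold, 188-fold and 430-fold lower. The most abundant genes of the list in the members were Chil3, a chitinase-like protein, at 832, 892, 524 and 751 CPM, Hp (haptoglobin) at 439, 390.1, 268 and 305 CPM and Lcn2 (lipocalin 2) at 748, 519, 243 and 322 CPM. Lcn2 lay between the sets, at 6.82, 167, 33.3 and 165 CPM in the monocyte or macrophage-like cells and 12064, 14816, 11629 and 18207 CPM in the neutrophil-like cells. The late neutrophil list, which includes the calprotectin genes S100a8 and S100a9, was lower in the members than in the neutrophil-like cells, which Retnlg, Cxcr2 and Csf3r of this list had chosen, by log2 ratios of -5.61, -6.18, -6.64 and -6.95. Against the monocyte or macrophage-like cells its ratios were 0.21, -0.23, -0.36 and -1.35.

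The 11 granulocyte transcription factors summed to 1832, 1504, 1124 and 1365 CPM in the members. The most abundant of them in each library was Cebpb, a factor of inflamed myeloid cells, at 1075, 775, 502 and 626 CPM. Cebpb was found in 152 members, Cebpd in 82 and Cebpa, needed to enter the granulocyte and monocyte branches, in 58. Cebpe, needed for specific granules, was found in 19 cells, at 18.7, 9.13, 1.08 and 7.81 CPM in the members and 47.0, 45.8, 145 and 87.6 CPM in the neutrophil-like cells. Gfi1, which represses monocyte genes, was found in 5 cells and in none of the neutrophil-like sets (0 UMIs), and Ly6g, a surface protein of neutrophils, in 1 cell. Irf8 was found in 114 cells, at 103, 107, 145 and 176 CPM, against 0, 5.09, 32.2 and 0 CPM in neutrophil-like cells and 225, 188, 391 and 223 CPM in monocyte or macrophage-like cells. By Irf8 CPM the members lay between the neutrophil-like and the monocyte or macrophage-like cells in every library. By difference of CPM they were nearer to the latter in ConA+Veh and ConA+FICZ only. By ratio they were nearer to the monocyte or macrophage-like cells in ConA+Veh and ConA+TCDD. The 0 CPM of the neutrophil-like cells in Naïve and ConA+FICZ gives no ratio there.

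Monocyte progenitor genes were below the monocyte or macrophage-like cells and, as a sum, nearer to the neutrophil-like cells, at 5758, 3923, 3044 and 4770 CPM in the members, log2 ratios of -0.55, -0.84, -0.68 and -0.82 against these cells and 0.45, -0.25, -0.18 and 0.01 against neutrophil-like cells. By its sum the list set the members below the monocyte or macrophage-like cells, but its ratios to the neutrophil-like cells had both signs. The list summed to 4210, 4659, 3442 and 4750 CPM in the neutrophil-like cells. Its most abundant gene there was Cd14, at 2940, 2663, 1512 and 2829 CPM. It includes Ly6c2, which was at 917, 1492, 1464 and 1379 CPM in the neutrophil-like cells. It also includes Csf1r, Ms4a6c and Fcgr1, which chose the monocyte or macrophage-like cells and were held low in the neutrophil-like cells by their definition. F13a1, a coagulation factor subunit made by monocytes, was at 570.2, 425, 307 and 546 CPM in the members, 569, 362, 119 and 564 CPM in the monocyte or macrophage-like cells and 0, 0, 0 and 10.3 CPM in the neutrophil-like cells. Ly86, a partner of a Toll-like receptor homologue, was at 365, 185, 194 and 263 CPM in the members, and the chemokine receptor gene Ccr2 at 439, 130.4, 131 and 217 CPM. Ccr2 was at 0 UMIs in every neutrophil-like set. Csf1r, the receptor for macrophage colony-stimulating factor, was at 196, 93.9, 71.4 and 130.2 CPM in the members, and Csf3r, the receptor for granulocyte colony-stimulating factor, at 9.35, 20.9, 19.5 and 13 CPM; both were used to choose the comparison cells.

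Genes of immature blood cells were present in part of the cells. Myb, a factor of dividing progenitors, was found in 73 cells, at 0, 54.8, 51.9 and 53.4 CPM, and Cd34, a progenitor surface protein, in 74 cells, at 168, 96.5, 111 and 63.8 CPM. Both were at 0 UMIs in all neutrophil-like sets. The receptor genes Kit and Flt3 were found in 22 cells each. The stem and multipotent progenitor list as a whole was higher than in neutrophil-like cells by log2 ratios of 6.60, 3.23, 3.6 and 4.44. The first of these (4.11 to 11.9) rests on 1 UMI in the Naïve neutrophil-like cells. Against the monocyte or macrophage-like cells the list's ratios were 1.23, -0.32, -0.90 and -0.55, so it was lower in each ConA library. Most of the list's sum was Ly6a, an interferon-inducible surface protein, at 1841, 1933, 1760.4 and 1831 CPM in the members and 736, 2748, 3734 and 2854 CPM in the monocyte or macrophage-like cells. Chaperones of the endoplasmic reticulum, which fold secreted and granule proteins, summed to 10497, 9133, 7555 and 8965 CPM in the members, log2 ratios of 3.02, 2.61, 2.13 and 2.31 against the neutrophil-like cells but 0.73, 0.079, 0.50 and -0.20 against the monocyte or macrophage-like cells, with Hspa5 (BiP) at 1374, 1089, 799 and 1154 CPM and Calr (calreticulin) at 1000.2, 934, 742 and 897 CPM.

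Receptors that guide progenitors were shared with the mature sets in different ways. Csf2rb, the shared receptor chain for GM-CSF and related cytokines, was found in 128 cells, at 327, 115, 132 and 201 CPM in the members, 353, 178, 145 and 316 CPM in neutrophil-like cells and 167, 176, 176 and 238 CPM in monocyte or macrophage-like cells. Cxcr4, the receptor that holds progenitors in the bone marrow, was found in 72 cells, at 28.0, 35.9, 39.0 and 39.1 CPM, below the 235, 50.9, 80.4 and 79.0 CPM of the neutrophil-like cells. Cxcr2, the receptor by which mature neutrophils leave it, was found in 8 cells, and it was among the genes that chose the neutrophil-like cells. Itga4, an integrin subunit of immature cells and monocytes, was at 74.8, 93.3, 93.1 and 74.2 CPM in the members and 70.6, 20.4, 16.1 and 24.0 CPM in the neutrophil-like cells. Myc, a factor of growing cells, was found in 67 members, at 84.1, 86.1, 55.2 and 80.7 CPM, against at most 5.15 CPM in the neutrophil-like and 38.1 CPM in the monocyte or macrophage-like cells. Spi1, the gene of PU.1, was found in 158 members, at 552, 430.5, 372 and 449 CPM.

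Over all genes, the 10 that stood highest in the members against neutrophil-like cells, by log2 ratios summed over the 4 libraries, were Ms4a6c, Lgals1, Prtn3, C1qb, Tuba1b, Rpl10a, Rpl12, Rps18, Rpl14 and Ptma. They hold 4 ribosomal protein genes, a tubulin, a monocyte gene and a complement gene. The 10 lowest were Retnlg, Ngp, S100a9, Camp, Mmp9, Pglyrp1, Slfn4, Cd177, G0s2 and Stfa2l1, most of them granule or mature neutrophil genes. Prtn3 chose the members, Retnlg chose the neutrophil-like cells, and Ms4a6c was held low in the latter by their definition.

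Transcripts of dividing cells were common in the members. After each cell was thinned at random to 1000 UMIs, 20% (0.505 to 71.6) of the Naïve members, 53.8% (42.2 to 65.0) in ConA+Veh, 51.1% (35.8 to 66.3) in ConA+TCDD and 41.0% (25.6 to 57.9) in ConA+FICZ held at least 2 UMIs of 24 mitosis genes. Without thinning the shares were 60%, 88.8%, 91.1% and 84.6%. Among thinned neutrophil-like cells 0%, 1.47%, 0% and 0.488% passed, and among monocyte or macrophage-like cells 1.67%, 10.8%, 20.8% and 4.0%. Their shares without thinning were 0%, 5.13%, 3.45% and 1.74% for neutrophil-like cells and 5%, 36.1%, 41.7% and 14.9% for monocyte or macrophage-like cells. The intervals of the members overlapped among the 3 ConA libraries. They lay above those of both comparison sets, except in ConA+TCDD, where the interval of the 24 monocyte or macrophage-like cells reached 42.2%. Thinning left out 2, 10, 6 and 25 neutrophil-like and 0, 2, 0 and 4 monocyte or macrophage-like cells that were shallower, and no member.

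Genes of DNA replication and of mitosis were both found. Mki67, a proliferation marker of chromosome surfaces, was at 74.8, 162, 156 and 130.2 CPM in the members, and Top2a, which untangles replicated DNA, at 122, 313, 268 and 242 CPM. The G1/S list, with replication helicase and nucleotide synthesis genes, gave 2 or more UMIs in 40.0%, 60%, 48.9% and 61.5% of thinned members, against 0%, 4.41%, 8.70% and 0.488% of neutrophil-like and 1.67%, 15.8%, 16.7% and 6.00% of monocyte or macrophage-like cells. Summed over genes, mitosis transcripts were at 1215, 2682, 2358 and 2177 CPM in members, log2 ratios of 4.09, 2.12, 0.68 and 2.81 against monocyte or macrophage-like cells. The ratio was smallest in ConA+TCDD, where the comparison set was 24 cells at 1477 CPM.

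**Figure D2:**
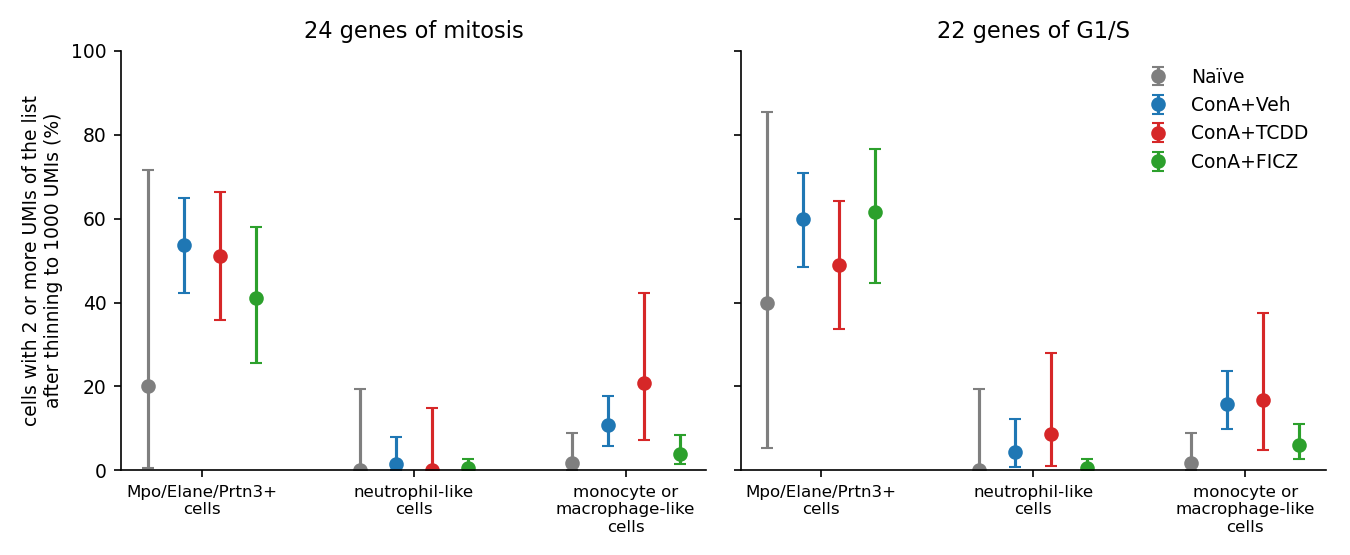
Percent of cells with at least 2 UMIs of the mitosis list (left panel) or the G1/S list (right panel) after thinning to 1000 UMIs per cell (y axis), for the 3 cell sets (x axis), with colours for the libraries and bars for exact 95% binomial intervals. For mitosis the members of the 3 ConA libraries lie between 41.0% and 53.8%, above the other cell sets of their library.

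The members differed among themselves along the amount of rule transcripts. Per 10000 UMIs of a cell, 71 cells held under 10 UMIs of the rule genes, 75 held 10 to 50 and 23 held 50 or more. These are ranges and not types: 16 cells lay between 8 and 12, and 14 between 40 and 60. Ctsg was at 35.6 CPM in the lowest, 448 in the middle and 1562 CPM in the highest range, and Ms4a3 at 10.8, 334 and 787 CPM. Macrophage-type genes ran the other way, with C1qb, a subunit of the first complement component, at 1948, 410.2 and 5.08 CPM, Lyz2 (lysozyme) at 2053, 1545 and 278 CPM and Csf1r at 135, 97.4 and 25.4 CPM. Irf8 was at 123, 146 and 125 CPM, Mki67 at 141, 172 and 118 CPM and Myb at 24.7, 60.8 and 89.7 CPM. Ctsg and Ms4a3 thus went with the rule genes and C1qb against them, while Irf8 and Mki67 were read over the whole range. The ranges pool libraries, which fill them unequally.

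Within single libraries, Spearman correlations over cells between the rule share and Ctsg per cell total were 0.69 in ConA+Veh (80 cells), 0.70 in ConA+TCDD (45 cells) and 0.67 in ConA+FICZ (39 cells). For Ms4a3 they were 0.76, 0.52 and 0.54, and for C1qb -0.60, -0.32 and -0.48. Csf1r gave -0.29, -0.35 and -0.22, Lyz2 -0.36, -0.038 and -0.087, and the class II gene H2-Ab1 -0.17, -0.39 and 0.080, so that for Lyz2 and H2-Ab1 the libraries differed and no common relation was seen. The points share their library, and both measures share the total of the cell, so these are descriptions. At least 3 UMIs of C1qa, C1qb and C1qc were found in 43 of the 71 cells of the lowest range, 19 of 75 in the middle and 1 of 23 in the highest. By library such cells were 2 of the 5 Naïve members, 33 of 80 in ConA+Veh (41.2%, 30.4 to 52.8), 10 of 45 in ConA+TCDD (22.2%, 11.2 to 37.1) and 18 of 39 in ConA+FICZ (46.2%, 30.1 to 62.8). The resident Kupffer cell genes Clec4f, Vsig4, Timd4, Marco and Cd5l were at 0 UMIs in all members. Of the 10 genes of the Kupffer and macrophage list that holds them, 5, 10, 8 and 6 had a UMI in the monocyte or macrophage-like cells. Those cells thus also lacked some of the list in Naïve, ConA+TCDD and ConA+FICZ. The highest range held 26.7% of the ConA+TCDD members, 13.8% of those of ConA+Veh and 0% of those of ConA+FICZ and Naïve.

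**Figure D3:**
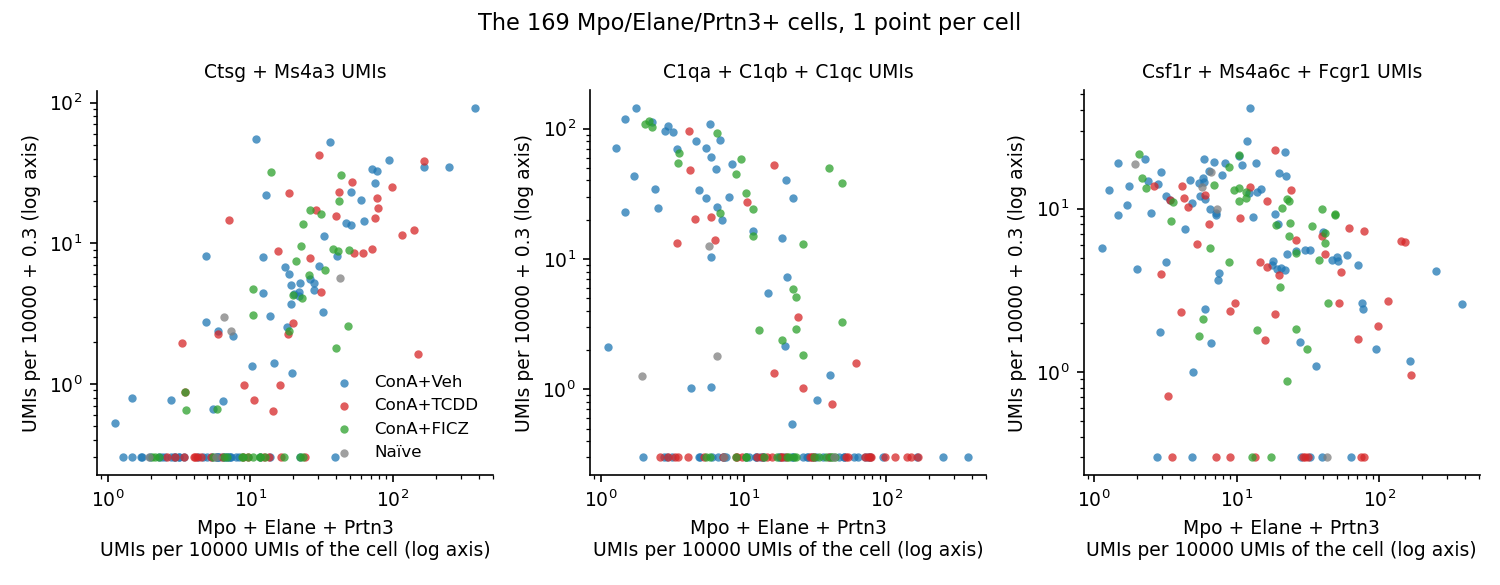
Each point is 1 of the 169 cells, coloured by library; the x axis gives Mpo + Elane + Prtn3 UMIs per 10000 UMIs of the cell, and the y axes give Ctsg + Ms4a3, C1qa + C1qb + C1qc and Csf1r + Ms4a6c + Fcgr1 UMIs per 10000 plus 0.3, all on log scales. Ctsg + Ms4a3 is high at the right and C1q at the left, and cells at the bottom line had no UMI.

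A share of the members in the whole library was the first comparison between conditions. ConA+Veh held 2.88% (2.29 to 3.57) and Naïve 0.240% (0.0779 to 0.558), a 12-fold difference (log2 ratio 3.59, 2.30 to 5.25). ConA+TCDD held 2.39% (1.75 to 3.19), a log2 ratio of -0.27 (-0.83 to 0.28) to ConA+Veh that was not distinguishable from equality at this count of cells, and that became 0.10 with a minimum of 10 rule UMIs and 0.13 with cells thinned to 1000 UMIs before the rule was applied. ConA+FICZ held 1.53% (1.09 to 2.08), a log2 ratio of -0.92 (-1.51 to -0.35) or 0.530 times the ConA+Veh share. With a minimum of 10 rule UMIs, 27 members of ConA+FICZ and 44 of ConA+Veh were left. The ratio was then nearer to equality and not distinguishable from it at this count of cells. The interval between ConA+FICZ and ConA+TCDD ran from -1.31 to 0.00217 around -0.65. The rule genes in T cells ran the same way as these shares for Naïve and ConA+FICZ against ConA+Veh: 4.49% of the ConA+Veh T cells held a UMI (73.7 CPM), against 0% of the Naïve T cells and 0.196% of those of ConA+FICZ (0.149 CPM). In ConA+TCDD the share was 3.27%, with an interval (1.95 to 5.12%) that overlapped that of ConA+Veh (3.13 to 6.21%), and the level was 142 CPM. Only 2 T cells of ConA+Veh and 1 of ConA+TCDD held at least 3 UMIs. These few cells held most of the UMIs behind the 73.7 and 142 CPM, so the levels do not describe T cells at large. The part of this T cell background in the member shares was not tested.

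The other myeloid sets did not follow the same order. Neutrophil-like cells were 0.911%, 2.81%, 1.54% and 9.0% of the libraries, a log2 ratio of 1.68 (1.30 to 2.07) for ConA+FICZ over ConA+Veh, where the members were lower. Monocyte or macrophage-like cells were 2.88%, 4.39%, 1.28% and 6.03%, a log2 ratio of -1.78 (-2.48 to -1.14) for ConA+TCDD over ConA+Veh. Among the ConA libraries, the members were thus fewest beside the neutrophil-like cells in ConA+FICZ, where 39 members stood beside 230 such cells. Shares of a library move with every other cell type in it and with the density gradient, and the spread between mice is unknown.

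**Figure D4:**
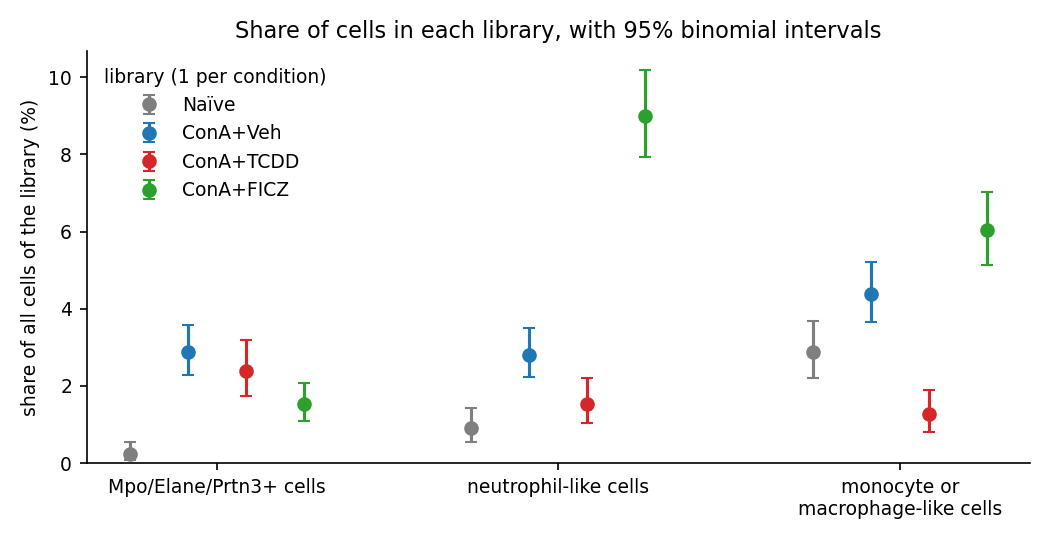
Percent of all cells of a library (y axis) that were Mpo/Elane/Prtn3+, neutrophil-like or monocyte or macrophage-like (x axis), with colours for the libraries and bars for exact 95% binomial intervals. The members run from 0.240% in Naïve to 2.88% in ConA+Veh, while neutrophil-like cells reach 9.0% in ConA+FICZ.

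The second question was how these cells differed between an AhR ligand and vehicle after ConA. In ConA+TCDD over ConA+Veh, the complement C1q genes, Apoe, Hmox1, the calprotectin genes and Isg15 and Irf7 were lower, and Tnf, Gbp2 and Iigp1 were higher. Of 5097 genes with at least 50 UMIs in both libraries together, 40 (0.785%) were more than 2-fold higher and 112 (2.2%) more than 2-fold lower, 2.98% in all, with a median log2 ratio of -0.03. These counts rest on 1 library a side. Of the primary granule list without the rule genes, 9 of 12 genes had enough UMIs, with a median log2 ratio of 0.048. None was more than 2-fold higher, and 1 was lower, Lyz2 (-1.48, -1.61 to -1.35), at 651 CPM against 1819 CPM. Of the rule genes, which chose the cells, Elane was past 2-fold (1.2, 1.05 to 1.34). Ctsg (0.16, -0.0046 to 0.32) and Ms4a3 (-0.21, -0.43 to 0.01) stayed within 2-fold.

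None of the 19 G1/S genes (median log2 ratio 0.13), the 24 mitosis genes (-0.22), the 16 chaperone genes (-0.30), the 13 monocyte progenitor genes (-0.40) or the 7 stem and multipotent progenitor genes (-0.05) that had enough UMIs was past 2-fold. Over all 5097 genes the share past 2-fold was 2.98%, so a count of none in a list this short is near that share. Of 7 granulocyte transcription factors Cebpa was lower, at 13 CPM against 26.1 CPM (-1.01, -2.07 to -0.048), and none of 11 growth factor receptors, 12 homing genes, 4 heme synthesis or 6 NADPH oxidase genes was past 2-fold. Of 5 specific granule genes 1 was lower, Lcn2, at 243 CPM against 519 CPM, and the median was -0.54. Of 13 late neutrophil genes 4 were lower (S100a8, S100a9, Wfdc21 and Wfdc17) and 1 higher, the collagenase gene Mmp8, at 77.9 CPM against 36.5 CPM. S100a8, a calcium-binding alarmin, was at 393 CPM in 9 of 45 cells of ConA+TCDD and at 1537 CPM in 29 of 80 cells of ConA+Veh (log2 ratio -1.97). These late genes were at 84123 and 98185 CPM (S100a8) in the neutrophil-like cells of the same libraries, and how far free RNA of those cells enters the members was not tested.

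Interferon-stimulated genes went both ways: of 13 with enough UMIs, 3 were higher and 4 lower. Gbp2, a GTPase against intracellular microbes, was at 382 CPM in ConA+TCDD and 121 CPM in ConA+Veh (log2 ratio 1.65, 1.39 to 1.92), with 495 CPM in Naïve and 299.5 CPM in ConA+FICZ. Iigp1 was higher by a log2 ratio of 1.35 (124 CPM against 48.9 CPM) and Gbp4 by 1.03. Isg15, a ubiquitin-like protein, was at 282 CPM against 729 CPM (-1.37), Irf7, the factor that amplifies type I interferon, at 73.6 CPM against 192 CPM (-1.38), and Oasl1 and Oasl2 were also lower. Gbp2 was also higher in ConA+TCDD in the other cell sets, at 1721 CPM against 1003 CPM in neutrophil-like and 1181 CPM against 361 CPM in monocyte or macrophage-like cells.

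Tnf, the inflammatory cytokine, was at 124 CPM in ConA+TCDD against 25.4 CPM in ConA+Veh (log2 ratio 2.29, 1.75 to 2.85), in 17 and 20 cells, and 1 cell held 34.8% of the ConA+TCDD UMIs. It was the 1 of 17 early inflammatory genes that was more than 2-fold higher, and none was lower. Cirbp, a cold-inducible RNA-binding protein, was at 75.7 CPM against 26.7 CPM (1.5), and its relative Rbm3 at 1131 CPM against 599 CPM (0.92, under 2-fold). Rbm3 was at 1131 CPM in Naïve and 1116 CPM in ConA+FICZ, so that ConA+Veh was the low library.

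The complement genes C1qa, C1qb and C1qc of the Kupffer and macrophage list were each more than 2-fold lower in ConA+TCDD (log2 ratios -1.48, -1.43 and -1.89), with C1qb at 405 CPM against 1089.9 CPM. Apoe, the lipid carrier made by macrophages and hepatocytes, was at 16.2 CPM in 9 cells against 140.2 CPM in 38 cells (-3.11, -3.97 to -2.36), and Hmox1, the heme-degrading enzyme, at 43.3 CPM against 259 CPM (-2.58, -3.09 to -2.11), with 46.6% of the ConA+Veh UMIs in 1 cell. C1qb in the monocyte or macrophage-like cells was at 729 CPM in ConA+TCDD and 3135 CPM in ConA+Veh. Cells with at least 3 C1q UMIs, a share that these genes define, were 22.2% in ConA+TCDD and 41.2% in ConA+Veh. Without those cells, an alternative chosen after the data were seen, 55 of 3926 genes in place of 112 of 5097 were more than 2-fold lower, with log2 ratios of -3.54 for Apoe, -1.61 for Hmox1, -0.86 for Isg15 and -0.94 for Irf7.

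The 10 genes with the highest ratios in ConA+TCDD rested in part on single cells. Prss34 and Mcpt8, basophil proteases with log2 ratios of 6.56 and 3.64, had 100% and 98.7% of their UMIs in 1 cell, and Gzmb, a granzyme (2.09), had 97.6% in 1 cell. AY036118, an unannotated transcript (3.18), was at 1143 CPM against 126 CPM, with 44.5% of UMIs in 1 cell. Ccl24, an eosinophil chemoattractant, was at 125.5 CPM in 15 cells against 16.3 CPM in 12 cells (2.94), and Acod1, the itaconate-making enzyme, at 90.9 CPM in 14 cells against 20.2 CPM in 15 cells (2.17). Tnf, Serpina3f, 1500011B03Rik and Gemin2 made up the rest. The 10 lowest ratios were those of Alb, Apoe, Hmox1, Gm14548, Slc11a1, Sirpb1c, Rab7b, Nkg7, S100a8 and Ascc1. Alb, the hepatocyte albumin gene, had 0 UMIs in ConA+TCDD against 61 in ConA+Veh, 52.5% of them in 1 cell. Ccl24 was also higher in the monocyte or macrophage-like cells, at 724 CPM against 69.0 CPM.

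AhR target genes gave little to compare. Ahrr, Cyp1a1, Cyp1a2 and Cyp1b1, the best known targets, had 0 UMIs in the members of every library, the ligand-treated ones included. Ahr itself was at 28.0, 28.0, 27.1 and 18.2 CPM. Tiparp, a further target that modifies the receptor, was at 65.4, 49.6, 73.6 and 45.6 CPM, a log2 ratio of 0.57 (0.08 to 1.06) for ConA+TCDD and -0.12 (-0.74 to 0.47) for ConA+FICZ over ConA+Veh. Of the 10 genes in the list, 2 had enough UMIs in ConA+TCDD and ConA+Veh together, and neither was past 2-fold.

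With ConA+FICZ over ConA+Veh, the rule gene Mpo, the class II genes H2-Aa and H2-Ab1, S100a8, S100a9 and Cxcl10 were lower, and Gbp2, Egr1 and Klf4 higher. Of 4938 genes, 39 (0.79%) were more than 2-fold higher and 69 (1.4%) lower, 2.19% in all, with a median log2 ratio of 0.04. Mpo was at 191 CPM against 442 CPM (log2 ratio -1.21, -1.47 to -0.95). Of the primary granule list without the rule genes, 9 of 12 genes had enough UMIs, with a median log2 ratio of -0.19 and none past 2-fold. Ctsg (-0.58, -0.78 to -0.37), Ms4a3 (-0.53, -0.79 to -0.28) and Prtn3 (-0.29, -0.39 to -0.20) were lower by less than 2-fold, and Lyz2 was at 1910.2 CPM against 1819 CPM. Both treated libraries were set against the same ConA+Veh library, so what is particular to that library enters both comparisons.

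None of the 7 granulocyte transcription factors, 5 specific granule, 10 growth factor receptor, 12 homing, 16 chaperone, 4 heme synthesis, 6 NADPH oxidase or 3 AhR list genes with enough UMIs was past 2-fold. With 2.19% of all 4938 genes past 2-fold, a count of none in lists this short is near the share over all genes. Csf2rb was the higher by a log2 ratio of 0.80 (0.48 to 1.12). Of 13 monocyte progenitor genes 1 was more than 2-fold higher, the factor Klf4, at 59.9 CPM against 25.4 CPM (1.24, 0.59 to 1.89), and none lower, with a median of 0.36. Of 20 G1/S genes Cdc6, the loader of the replication helicase, was higher (39.1 CPM against 17.6 CPM). Of 24 mitosis genes Cenpf and Kif11, a kinetochore protein and a spindle motor, were lower, at 31.2 CPM against 62.6 CPM and 26.0 CPM against 56.1 CPM. Of 13 late neutrophil genes S100a8, S100a9 and Clec4d were lower and Mmp8 higher. S100a9 was at 59.9 CPM in 6 cells against 702 CPM in 16 cells (-3.55, -4.01 to -3.13). Sox4, a progenitor factor, was at 26.0 CPM against 86.1 CPM (-1.73), the 1 of 6 stem and multipotent progenitor genes past 2-fold.

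Of 17 early inflammatory genes Egr1, an immediate-early factor, was higher (84.6 CPM against 27.4 CPM, 1.63) and Nfkbiz lower (-1.09). Gbp2 was the 1 of 13 interferon-stimulated genes past 2-fold, at 299.5 CPM against 121 CPM (1.30, 1.02 to 1.59), and Isg15 (-0.57) and Irf7 (-0.05) were not. Tnf was at 26.0 CPM against 25.4 CPM. Cxcl10, a chemokine induced by interferon, was at 84.6 CPM against 307 CPM (-1.86, -2.26 to -1.48). In ConA+TCDD the same gene was at 483 CPM.

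Class II genes H2-Aa and H2-Ab1 were lower, at 65.1 CPM against 167 CPM and 78.1 CPM against 175.5 CPM, and made 2 of the 4 dendritic cell genes with enough UMIs (median -1.08). Members with at least 3 UMIs of these 2 genes were about as common, at 23.1% (11.1 to 39.3) in ConA+FICZ and 23.75% (14.9 to 34.6) in ConA+Veh. The dendritic genes Xcr1, Cd209a, Siglech and Zbtb46 were at 0 UMIs in all members. The macrophage list had 5 genes with enough UMIs, none past 2-fold, with a median of 0.33. Among the highest ratios were those of Pf4, Fabp4, Ccl24, Ccl7, Saa1, Egr1, Fosb, S100a4 and Trem2. Of these, Pf4, a platelet chemokine (6.88), Fabp4, a fatty acid carrier (5.75), and Ccl24 (4.41) had 54.2%, 92.6% and 95.9% of their ConA+FICZ UMIs in 1 cell. Saa1, an acute-phase protein gene, was spread over 16 of 39 cells (49.5 CPM against 10.4 CPM), and S100a4 over 26 cells (85.9 CPM against 30.7 CPM). The 10 lowest ratios were those of S100a9, G0s2, AA467197, Tnip3, S100a8, Fkbp11, Slc7a11, Trem3, Cxcl10 and Arl3.

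**Figure D5:**
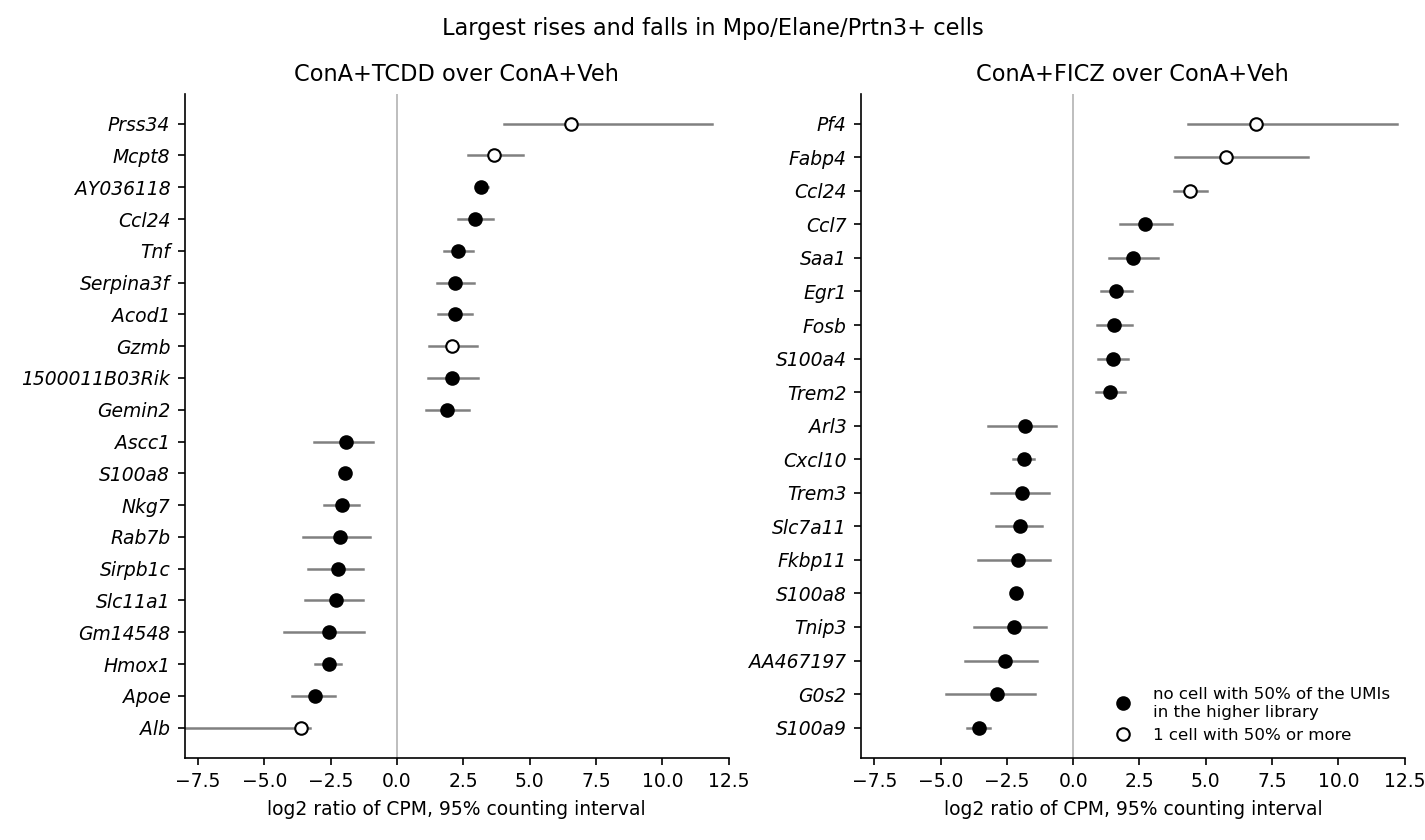
Log2 ratio of CPM in the Mpo/Elane/Prtn3+ cells (x axis) for genes among the 10 highest and 10 lowest, for ConA+TCDD and for ConA+FICZ, each against ConA+Veh, with 95% intervals for counting error. Open points mark genes with at least 50% of the UMIs of the higher library in 1 cell, among them Prss34, Mcpt8 and Gzmb in ConA+TCDD and Pf4, Fabp4 and Ccl24 in ConA+FICZ, and Alb is drawn at the floor of 3 counts.

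Transcripts of other cell types in the members moved between libraries as well. The Kupffer and macrophage list summed to 308, 2021, 678 and 2536 CPM, led by C1qb. The basophil and mast cell list summed to 2010, 69.1, 169 and 163 CPM, led by Mcpt8 in Naïve and ConA+TCDD, Hdc in ConA+Veh and Cpa3 in ConA+FICZ, with Tpsb2 and Cma1 at 0, and 10 cells held at least 3 UMIs of Mcpt8, Prss34, Cpa3 and Ms4a2. A single cell held at least 179 of the 215 UMIs of this list in Naïve, 135 of 156 in ConA+TCDD and 70 of 125 in ConA+FICZ. The hepatocyte list summed to 18.7, 104, 13 and 105 CPM, the T and NK list to 0, 141, 76.8 and 57.3 CPM, with Cd4 and Ncr1 at 0, and the dendritic list to 925, 2040, 2299 and 1349 CPM. The megakaryocyte list reached 83.3 CPM in ConA+FICZ, most of it Pf4, and the erythroid list was at most 52.2 CPM, in ConA+Veh. The eosinophil list summed to at most 18.4 CPM, the early B list to 2.61 CPM, the endothelial and stellate list to 32.6 CPM and the B and plasma cell list to 168 CPM, led by Cd37, which other leukocytes also transcribe. Hepatocyte transcripts were thus lowest in ConA+TCDD among the ConA libraries, as were the macrophage transcripts. Their part in the differences between libraries was not tested.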

How the data were processed

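Liver cells were captured with a 5′ droplet kit, and the deposited files hold whole-number UMI counts per gene and cell that the authors made with Cell Ranger 3.0.2 on mm10, per the labels. The counts cover 31053 genes in 4 libraries, 1 per condition, already filtered to cells, and no other column of values was left unused (0 columns). No further cell filter and no doublet caller was applied.

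The members and gene lists were chosen with earlier results of these data known. UMIs were summed over the members of a library and divided by their total to give CPM, with exact 95% Poisson intervals. Shares have exact (Clopper-Pearson) binomial intervals, and ratios of CPM or shares have exact intervals from the binomial split of their summed counts. A sum of 0 was given a floor of 3 counts per library. All of these cover counting error only, and UMIs are molecules rather than reads. Genes past 2-fold were counted among those with at least 50 UMIs in the pair of libraries, without a test, since cells are not replicates. With fewer than 20 members, Naïve gene levels were set beside those of the other libraries without ratios between libraries. Ratios of the Naïve members to the comparison cells of their library, and ratios of shares, were still given. For shares of cells with listed genes, each cell was thinned at random to 1000 UMIs with a fixed seed. The genes named are the rule genes, listed genes that define a list or passed 2-fold, and the 10 highest and 10 lowest ratios of each comparison. A few genes that the rule names are not reported here. Alternatives changed the rule, the scaling, the minimum UMIs, the comparison cells and the thinning depth. Promoters were read from RefSeq and gene positions from GENCODE, both on GRCm38. The code was tested on simulated data and run with Python 3.11.15, using pandas 2.3.3, matplotlib 3.10.9, numpy 2.4.6 and scipy 1.17.1.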

Additional observations from a re-analysis of the deposited data

How the results depend on the processing

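With 1 library per condition and 5 Naïve members, every ratio rests on counting error alone, and the spread between mice is unknown. No paired analysis was possible because no group had a second library. Of the 163 summary values recomputed under the alternatives, 96 stayed within their counting interval or within 1.5 times and 67 moved. The Naïve library had no member when the rule was applied to thinned cells, so that setting gave no ratio for it. The log2 ratio of shares of ConA+Veh over Naïve ran from 3.46 to 4.26 and that of ConA+FICZ over ConA+Veh from -1.06 to -0.58. The value of -0.58, with members of at least 10 rule UMIs, was not distinguishable from equality.

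Counts of genes past 2-fold also moved. The minimum of UMIs and the choice of members change how many genes or cells enter, while both kinds of means keep the genes and cells. For ConA+TCDD over ConA+Veh the 40 higher genes became 155 with means over cells, 70 with mean UMIs per cell, 161 with a minimum of 20 UMIs, 17 with 100 and 511 with none. The 112 lower genes became 58 with members of at least 10 rule UMIs, 185 with means over cells, 329 with a minimum of 20 UMIs, 45 with 100, 819 with none and 55 without the C1q cells, a setting chosen after the data were seen. For ConA+FICZ over ConA+Veh the 39 higher genes became 69 with at least 10 rule UMIs, 107 with means over cells, 196 with a minimum of 20 UMIs, 17 with 100 and 532 with none, and the 69 lower genes 159, 262, 28 and 749 under the last 4 of these.

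With means over cells, the specific granule log2 ratio of members to neutrophil-like cells was -2.46, -3.34, -3.79 and -3.98 (Naïve, ConA+Veh, ConA+TCDD, ConA+FICZ), and that to monocyte or macrophage-like cells 0.44, -0.19, -0.078 and -0.57, a change of sign in Naïve. In ConA+TCDD the first was -5.00 with comparison cells of at least 5 UMIs and -5.02 with low-quality cells left out, and the second -0.93 in both. The monocyte progenitor ratio with means over cells was -0.013 to neutrophil-like cells in ConA+Veh, and -0.68, -0.85 and -0.92 to monocyte or macrophage-like cells in ConA+Veh, ConA+TCDD and ConA+FICZ, with -0.79 in ConA+TCDD for comparison cells of at least 5 UMIs.

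The share of members with mitosis genes in ConA+Veh, ConA+TCDD and ConA+FICZ was 35.0%, 31.1% and 17.9% at 500 UMIs, 74.7%, 66.7% and 66.7% at 2000, 88.8%, 91.1% and 84.6% without thinning, 70.0%, 73.3% and 64.1% with a minimum of 1 UMI and 21.2%, 13.3% and 12.8% with 5. Members of at least 10 rule UMIs gave 65.9% in ConA+Veh and 63.0% in ConA+FICZ. The share with at least 3 UMIs of specific granule genes, at 20%, 30.0%, 17.8% and 30.8% of thinned members, became 16.2%, 6.67% and 15.4% in the ConA libraries at 500 UMIs, 50.6% in ConA+Veh at 2000, and 80.0%, 77.5%, 77.8% and 89.7% without thinning. With a minimum of 1 UMI it was 61.2%, 44.4% and 59.0% in the ConA libraries, with 5 it was 17.5% in ConA+Veh, and with members of at least 10 rule UMIs 0% in Naïve.

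Of single genes and members, Gzmb (-0.75) and Mcpt8 (-2.85) turned lower in ConA+TCDD with members of at least 10 rule UMIs, Alb turned to 0.073 in ConA+FICZ with low-quality cells left out, and AA467197 to 0.24 in ConA+FICZ without the C1q cells. Without these cells Pf4 in ConA+FICZ was at a log2 ratio of 1.24 and Ccl24 at 0.24. Why these values moved was not tested.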

Other observations

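Cells with at least 3 UMIs of the rule genes were also found among cells with T or B cell transcripts, which the rule left out. By Cd3d, Cd3e and Cd3g, 12 cells of ConA+Veh and 4 of ConA+TCDD were left out and none (0) of Naïve or ConA+FICZ, and 9 and 3 of them held a single Cd3 UMI. By Cd79a, Cd79b and Ms4a1 alone, 3 cells of ConA+Veh, 1 of ConA+TCDD and 3 of ConA+FICZ were left out. Their median sum of the rule genes was 21 UMIs in ConA+Veh, 21 in ConA+TCDD and 80 in ConA+FICZ, no lower than that of the members.

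The subunits of the phagocyte NADPH oxidase, which makes the superoxide that Mpo draws on, summed to 2599, 2245, 1622 and 2336 CPM in the members (libraries in the order used above), and to 6091, 4944, 5292 and 6115 CPM in the neutrophil-like cells. Of the 6 genes none was past 2-fold in ConA+TCDD over ConA+Veh, with a median log2 ratio of -0.39. Heme synthesis genes, whose product Mpo carries, summed to 430.0, 299, 291 and 307 CPM in the members, 94.1, 153, 64.3 and 216 CPM in the neutrophil-like cells and 147, 185, 152 and 230.5 CPM in the monocyte or macrophage-like cells.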
